A study of Citrullus lanatus with 6 samples.

Results

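The gene models described here are 41 of the 23568 in the deposited expression table of watermelon leaf. They carry names of proteins that plants encode in the plastid or mitochondrial genome, or names that point to the chloroplast, although they lie in the annotation of the nuclear genome, most on chromosomes and 7 in unplaced sequence. They were chosen by identifier and description alone. A model entered when its description in the study's list of changed genes held a word or phrase such as photosystem, NAD(P)H-quinone oxidoreductase, cytochrome b, ATP synthase subunit, chloroplast, plastid or ycf, and ClCG05G017710 was added by name. That list was at hand only in part. Its first 1998 entries were read, they are in falling order of the study's own fold change, and every one is raised in salt. The higher level of the members in salt was therefore fixed by how they were chosen on these same libraries. It is given as a description. Where calls of the fit across all genes are quoted for members, they were made on the libraries that chose them and are no independent evidence. Models with such names that fell in salt or rose less could not enter.

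Leaves came from seedlings of the cultivar Crimson Sweet, 6 weeks old, which stood for 7 h in 300 mM NaCl (salt) or in water without added salt (control). Each group has 3 libraries, which the labels assign to separate plants, and no group carries a transgene or mutation. The labels are in conflict, since part of them calls the treated plants drought-stressed, while the protocol and the series title say salt, and salt is used here. Values are FPKM, fragments per kilobase of gene model per 1000000 fragments, from paired-end RNA-seq, and a summed share is given as fragments per 1000000 fragments of the library.

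Plastids and mitochondria keep small genomes of their own. The plastid genome encodes the core of both photosystems, the large subunit of Rubisco, subunits of ATP synthase and of the NDH complex that passes electrons to plastoquinone, and part of the plastid ribosome. The mitochondrial genome encodes core subunits of the respiratory complexes, among them cytochrome b, cytochrome c oxidase subunit 1 and several NADH dehydrogenase subunits. Most other proteins of these complexes are encoded in the nucleus and imported. Pieces of organelle DNA are also found copied into plant nuclear chromosomes, where gene prediction can turn them into models. A fragment read from an organelle transcript and one read from a nuclear copy of the same sequence cannot be told apart in these values, and neither can near-identical copies of 1 gene. Whether organelle genomes were part of the authors' reference is not given in the sources used here.

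By their names the 41 members fall into 24 plastid-type models, 4 mitochondrial-type models, 7 ATP synthase models whose description gives no organelle, and 6 models that look nuclear, 5 named for proteins that do not belong to the plastid gene set and 1 with only a location in its description. The first 3 groups, 35 models in all, are called organelle-type below. The label of the set fits the 24 plastid-type and 4 mitochondrial-type models by name. For the 7 ATP synthase models the name alone does not settle it. For 5 of the other 6 the name goes against it, and the remaining 1 has no name to judge by.

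Library totals recovered from the FPKM values ran from 18838185 to 21258223 fragments, so 1 fragment meant nearly the same in every library. Across the 16638 genes tested, those averaging 0.5 FPKM or more over all libraries, the median log2 difference of salt against control was -0.57, and it was -0.05 after the libraries were scaled by the median ratio of their genes. Salt replicate 2 had the lowest scaling factor, 0.69 against 0.88 and 0.95 in the other salt libraries and 1.21 to 1.29 in the control libraries. For the leaf label, 32 nuclear photosynthesis genes had a summed share of 14330 ± 4014 in the control libraries and 2563 ± 1808 in the salt libraries (SD, n = 3). The study listed these genes as lower in salt on these same libraries, and no other tissue was at hand. The shares describe the samples and do not test the label.

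Of the 41 members, 40 passed the filter on low values, 34 had an adjusted p below 0.05 with a higher level in salt in limma, none was called lower and 6 were not called, and the difference was above 0 in all 40. Across all genes tested, 13.6% were called higher and 34.2% lower (47.8% in either direction), and nothing is read from the members' count because the choice fixed it. The members' median log2 difference was 2.48 (range 1.03 to 5.51). After median-ratio scaling it was 2.72, with 37 called higher, while 22.4% of all genes tested were called higher and 20.9% lower. Without salt replicate 2, the median was 2.29 and 32 were called higher, while 12.7% of all genes tested were called higher and 29.2% lower. Every salt library lay above every control library in 38 of the 41 members, against 17.7% of all genes tested, while no member lay wholly below, against 43.4%. In bulk leaf, a change in the number of cells of a type and a change in RNA per cell cannot be told apart.

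The summed share of the 41 members was 46.4, 68.2 and 116 in control replicates 1 to 3, and 913, 1198 and 855 in salt replicates 1 to 3. The groups did not overlap, and even the highest control sum was far below the lowest salt sum. In the control libraries 22 of the 41 had a mean under 1 FPKM, and 5 of these had no fragment at all. The other members were detected in control, up to the 84.6 FPKM of ClCG05G017710. That model alone took between 22.2% and 44.9% of the members' fragments in each library.

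**Figure D1:**
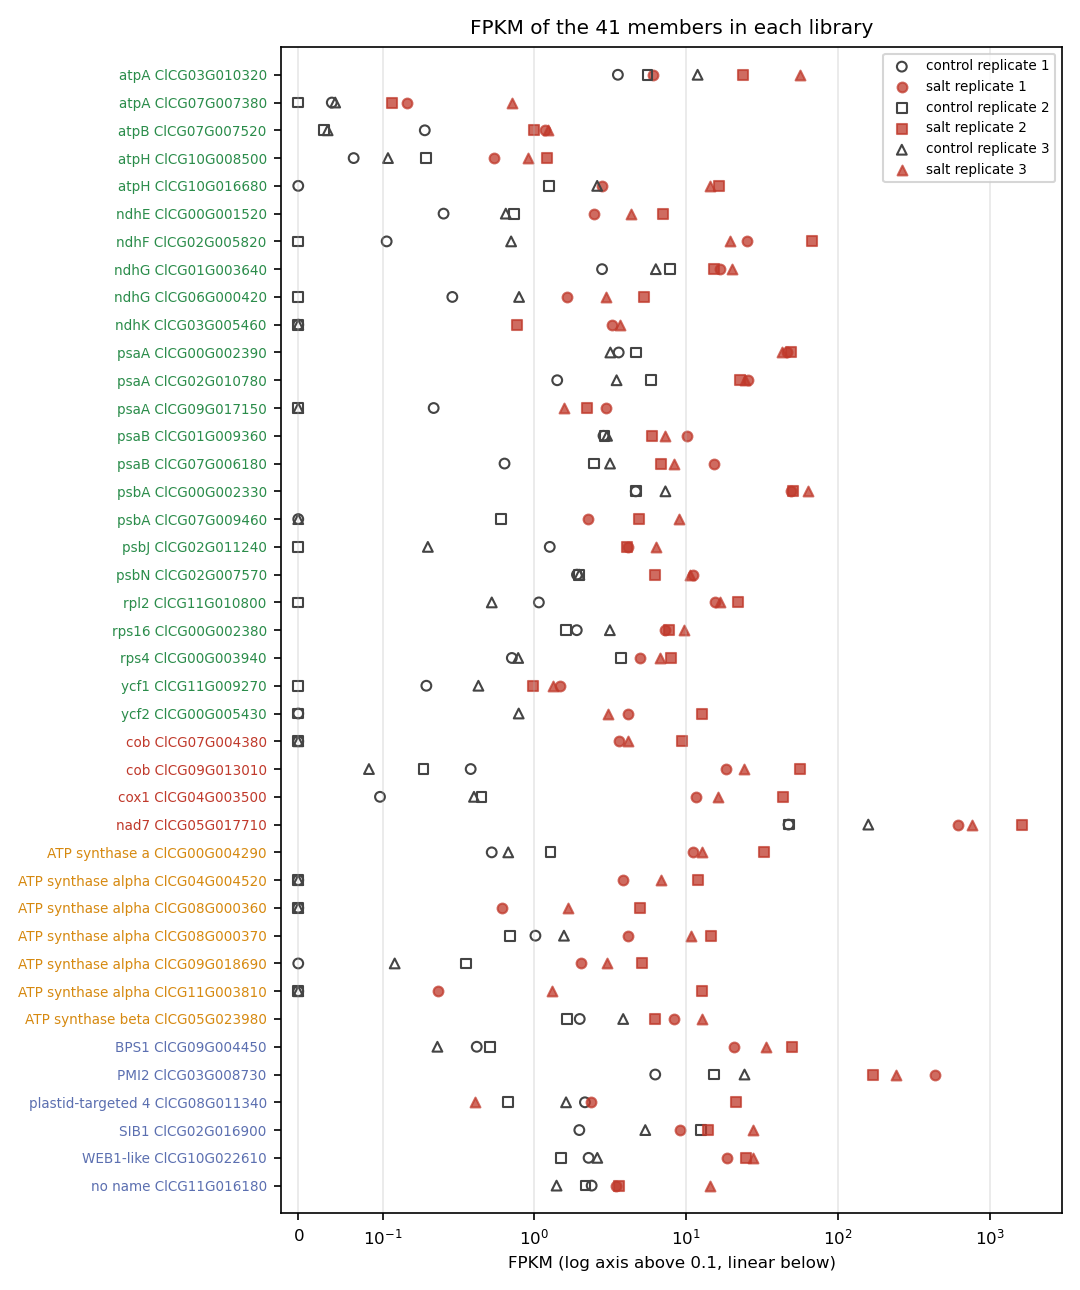
FPKM of each of the 41 members (rows) in the 3 control libraries (open symbols) and the 3 salt libraries (filled symbols), on an axis that is logarithmic above 0.1 and linear below, with names coloured by class from plastid-type at the top to nuclear-looking at the bottom. ClCG05G017710 (nad7) lies far above the other organelle-type models, and salt and control points overlap in 3 rows.

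The photosystem models carry the names of plastid-encoded core proteins. PsaA and PsaB hold the reaction centre of photosystem I, PsbA (here named photosystem Q(B) protein) is the D1 protein of photosystem II, PsbJ is a small photosystem II subunit, and PsbN acts in photosystem II assembly. The 9 models had log2 differences from 1.24 to 3.44. Their summed share varied little among the salt libraries, with 6.80, 10.1 and 9.40 in the control libraries and 70.4, 63.9 and 72.0 in the salt libraries.

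The psbA model ClCG00G002330 stood at 4.66, 4.66 and 7.31 FPKM in control and at 49.4, 50.4 and 63.3 in salt, a log2 difference of 3.20 ± 0.27 (SE). All 3 salt libraries were high, and none came near a control. The other psbA model, ClCG07G009460, had 0, 3 and 0 fragments in control and 10, 22 and 42 in salt, and the ratio of the pooled levels was 25.8 (95% counting interval 8.48 to 128). Its counts are too low in control to place the fold closely.

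The psaA name is shared by 3 models. ClCG00G002390 had 3.60, 4.68 and 3.17 FPKM in control and 46.4, 48.8 and 42.9 in salt (log2 difference 3.44 ± 0.26). ClCG02G010780 had 1.42, 5.85 and 3.48 FPKM in control and 25.7, 22.6 and 24.3 in salt (log2 difference 2.76 ± 0.44). In both, the salt libraries differed little from each other while the controls were low. ClCG09G017150 was almost silent in control, with 2, 0 and 0 fragments against 25, 19 and 14 in salt, a pooled ratio of 30.3 (95% counting interval 8.01 to 256). Both psaB models had smaller differences, 1.24 and 2.13. ClCG01G009360 had 24, 25 and 23 fragments in control and 78, 46 and 59 in salt, and ClCG07G006180 had 4, 16 and 18 against 88, 40 and 51. In each of them salt replicate 1 was the highest library and salt replicate 2 the lowest of the salt group. The psbJ and psbN models, ClCG02G011240 and ClCG02G007570, had log2 differences of 2.63 and 1.95, with no overlap of the groups.

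The NDH models name subunits of the plastid complex that feeds electrons from ferredoxin into the plastoquinone pool. There were 5. The largest log2 difference of any member in the main fit belonged to ClCG02G005820, described as NADH dehydrogenase subunit F and placed with the plastid by the letter of its subunit. It had 1, 0 and 6 fragments in control and 216, 583 and 178 in salt, a log2 difference of 5.51 ± 0.56. Salt replicate 2 held by far the most, and the groups did not come near each other. Its first place is not firm, since the cytochrome b model ClCG09G013010 lay above it without control replicate 1, control replicate 2 or salt replicate 1, and in the ratio of mean FPKM (152 against 138). The 2 ndhG models differed in level. ClCG01G003640 was expressed in control, with 56, 161 and 115 fragments, and had 307, 281 and 388 in salt (log2 difference 1.63 ± 0.39), whereas ClCG06G000420 had 4, 0 and 10 fragments in control and 21, 68 and 40 in salt. The ndhE model ClCG00G001520 had a log2 difference of 2.23. The ndhK model ClCG03G005460 had no fragment in control and 21, 5 and 25 in salt, at least 17.8-fold higher with 3 fragments over the control group taken as the floor. Here salt replicate 2 was the lowest salt library.

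Models named for the plastid ribosome and for ycf genes were 5. The rpl2 model ClCG11G010800, named for a protein of the large ribosomal subunit, had 9, 0 and 4 fragments in control and 120, 170 and 137 in salt (log2 difference 4.31 ± 0.47). Its salt libraries were similar. The rps16 and rps4 models, ClCG00G002380 and ClCG00G003940, named for proteins of the small subunit, had log2 differences of 1.71 and 1.89. Among the ycf models, ClCG00G005430 (ycf2) had 0, 0 and 7 fragments in control and 37, 115 and 29 in salt, and ClCG11G009270 (ycf1) had 3, 0 and 6 against 21, 14 and 20. Both genes encode large proteins linked to import across the plastid envelope in other plants.

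The plastid ATP synthase models were the least even of the set. The complex makes ATP from the proton gradient across the thylakoid, AtpA and AtpB form its catalytic head and AtpH its membrane ring. The atpA model ClCG03G010320 had 3.55, 5.58 and 11.9 FPKM in control and 6.08, 23.7 and 56.7 in salt, so that salt replicate 1 lay within the control range. It was not called, but was called higher with the replicate number as a block and without salt replicate 1. The other atpA model, ClCG07G007380, had 3, 0 and 3 fragments against 10, 8 and 52, and was too low to be tested. It is the longest member, at 3636 bases. The atpH model ClCG10G016680 had 0, 6 and 11 fragments in control and 12, 71 and 65 in salt and was called, but not without control replicate 1 or 2 or salt replicate 2 or 3, nor by voom on the recovered fragments. The atpH model ClCG10G008500 had 2, 6 and 3 fragments against 15, 34 and 27 with no overlap, and was not called in the main fit but was under 7 of the 16 alternatives. The atpB model ClCG07G007520 had 6, 1 and 1 fragments in control and 34, 29 and 38 in salt.

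The 4 mitochondrial-type models name core subunits of the respiratory chain, with a median log2 difference of 4.19 (range 3.52 to 5.40) and 3.71 without salt replicate 2. The model ClCG05G017710, described as NADH dehydrogenase subunit 7, a subunit of complex I, was the most highly expressed organelle-type member in every library. It is a model of 327 bases on chromosome 5. It stood at 47.3, 47.6 and 159 FPKM in control and at 619, 1644 and 771 in salt, that is 84.6 ± 64.3 against 1011 ± 553 (SD, n = 3), a log2 difference of 3.69 ± 0.55. Control replicate 3 stood well above the other controls and salt replicate 2 well above the other salt libraries, and the groups did not overlap.

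Cytochrome b, the core of complex III, is named by 2 models. ClCG09G013010 had 10, 5 and 2 fragments in control and 442, 1373 and 609 in salt, a log2 difference of 5.40 ± 0.47. ClCG07G004380 had none in any control library and 75, 198 and 91 in salt, at least 127-fold higher by the same floor. The model for cytochrome c oxidase subunit 1, the catalytic subunit of complex IV, ClCG04G003500, had 4, 19 and 15 fragments in control and 440, 1649 and 646 in salt (log2 difference 4.69 ± 0.52). All 4 models had the same order in salt, with replicate 2 highest, then replicate 3, then replicate 1. Without ClCG05G017710 the mitochondrial-type models had summed shares of 0.67, 1.13 and 0.90 in control and to 50.4, 168 and 66.9 in salt.

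The 7 ATP synthase models have no organelle in their description, and the name alone does not settle where each belongs. ClCG00G004290, named for subunit a of the membrane part, had 6, 15 and 7 fragments in control and 117, 346 and 142 in salt (log2 difference 3.74 ± 0.48). In salt its 3 libraries had the same order as the mitochondrial-type models. ClCG05G023980, named for the beta subunit of the catalytic head, had 45, 38 and 79 fragments in control and 171, 131 and 280 in salt, with salt replicate 3 highest and replicate 2 lowest.

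The other 5 are named for the alpha subunit, and in all 5 salt replicate 2 was the highest library. ClCG04G004520 had no control fragment and 60, 188 and 113 in salt, at least 126-fold higher. ClCG08G000360 had no control fragment and 7, 57 and 20 in salt, at least 29.2-fold higher. Its neighbour in the annotation, ClCG08G000370, had 10, 7 and 14 fragments in control and 37, 132 and 103 in salt. These 2 adjacent models were raised together but only ClCG08G000370 was detected in control. ClCG09G018690 had 0, 10 and 3 fragments against 51, 130 and 80. ClCG11G003810 rests on 1 library, with no control fragment and 1, 56 and 6 in salt, and was not called in the main fit. It was called higher with the replicate number as a block, with a pseudocount of 0.1 and without salt replicate 1.

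The 6 nuclear-looking models were less alike. PMI2 (ClCG03G008730), whose counterpart in Arabidopsis is needed for chloroplast movement in light, was the most highly expressed of them, at 6.26, 15.3 and 24.3 FPKM in control and 440, 170 and 242 in salt (log2 difference 4.25 ± 0.52). Salt replicate 2 was the lowest of its salt libraries. The WEB1-like model ClCG10G022610, also named for chloroplast movement under blue light, had 83, 56 and 86 fragments in control and 622, 833 and 982 in salt (log2 difference 3.21 ± 0.32). BPS1 (ClCG09G004450), whose Arabidopsis namesake limits a root-derived signal, had 8, 10 and 4 fragments in control and 362, 887 and 622 in salt (log2 difference 5.24 ± 0.40).

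The remaining 3 nuclear-looking models were not called in the main fit. SIB1 (ClCG02G016900), known in Arabidopsis as a binding partner of a plastid sigma factor, had 1.98, 12.5 and 5.39 FPKM in control and 9.16, 14.0 and 27.7 in salt, so the groups overlapped. It was called higher with median-ratio scaling, quantile normalization, voom, the replicate number as a block and without control replicate 2. ClCG11G016180, described only as located in the chloroplast, had 30, 28 and 16 fragments against 40, 42 and 175, of which most in salt came from replicate 3, and was called higher with median-ratio scaling and with quantile normalization. The model named plastid-targeted protein 4, ClCG08G011340, had the smallest difference of all tested members, 1.03 ± 1.04 on the log2 scale. Its fragments were 22, 7 and 15 in control and 22, 202 and 4 in salt, so salt replicate 2 alone was high, and the log2 difference was -0.22 without that library and 2.08 without salt replicate 3.

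**Figure D2:**
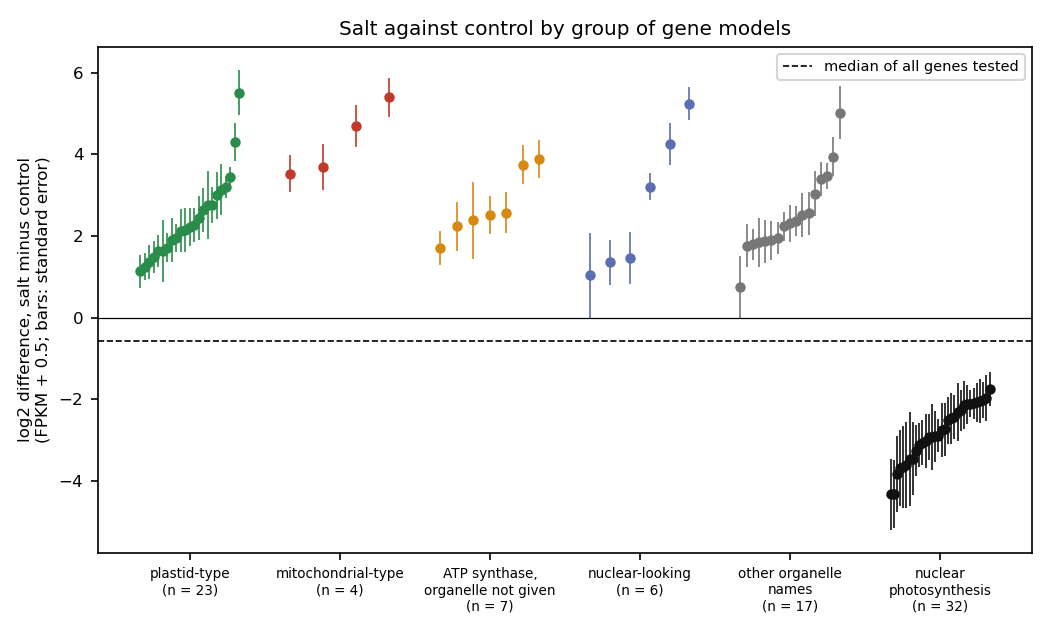
Log2 difference of salt minus control on FPKM + 0.5 with its standard error for each tested model (points), in the 4 member classes, in 17 other models with organelle names and in 32 nuclear photosynthesis genes; the dashed line is the median of all genes tested, -0.57. Every member point is above 0, and every nuclear photosynthesis point is below it.

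A second set of organelle names, 19 models in the same entries of the study's list whose descriptions the rule's words did not catch, gave like values. They were drawn from the same raised genes, so their direction was fixed as well. Of 17 tested, 16 were called higher and none lower, with a median log2 difference of 2.31. The 5 named for the large chain of Rubisco, the plastid-encoded carbon-fixing subunit, had log2 differences from 2.24 to 3.47. The most highly expressed of them, ClCG03G010150, had 5.79, 7.91 and 13.2 FPKM in control and 88.9, 117 and 93.7 in salt. The largest difference was that of the rpl16 model ClCG08G009700, 5.01, and the only model not called was the atpE model ClCG00G002480, high in salt replicate 1 alone.

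Nuclear genes of photosynthesis are given beside the members for their levels. The study drew up this list of 32 genes on these libraries as genes that fell in salt, so their direction was fixed too and the contrast with the members is not a finding. All 32 were called lower, with a median log2 difference of -2.82 (range -4.34 to -1.76), and 30 were called lower after median-ratio scaling. Across all genes tested, 34.2% were called lower, and 20.9% after median-ratio scaling. Photosystem II 22 kDa protein (ClCG08G005640), which dissipates excess light, fell from 1689 ± 82.9 to 361 ± 250 FPKM (SD, n = 3). Photosystem I subunit V (ClCG10G004510) fell from 873 ± 379 to 130 ± 88.9, and chlorophyll a/b binding protein 7 (ClCG11G013660), of the light-harvesting antenna, from 1304 ± 262 to 267 ± 264. ATP synthase gamma chain 1 (ClCG03G004720), the rotating shaft of the plastid enzyme, fell from 607 ± 159 to 51.7 ± 60.3 FPKM. Plastocyanin (ClCG05G015390), the copper protein that feeds photosystem I, fell from 573 ± 342 to 82.1 ± 103. Even after the fall, this list had summed shares of 4319, 707 and 2663 in the salt libraries, well above the 121, 153 and 148 of the plastid-type members.

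The salt libraries also differed among themselves, by class of model. The rule did not name this measure, but it is not free of the choice of members. The study's fold change includes salt replicate 2, so a high value there helped a model to enter. Shares over all genes tested are therefore no like reference for the members. The measure was also chosen after the values were seen, and it is a description. Salt replicate 2 was the highest salt library in 21 of the 41 members, against 19.8% of all genes tested. It exceeded the higher of the other salt libraries by over 1.5 times in 14 of the 41 members (35.0% of the 40 tested), in 7.24% of all genes tested, and in 15.8% of the genes called higher. It did so in 4 of 4 mitochondrial-type models, by 2.13 to 2.68 times, and in 4 of the 5 ATP synthase alpha models. Of 2 other models with mitochondrial names outside the set, 1 passed 1.5 times, whereas the nad1 model ClCG09G011440 had 2.11, 1.74 and 0.33 FPKM in salt, highest in replicate 1. The excess was found in none of the 9 photosystem models, whose ratios ran from 0.45 to 1.05, and in none of the 5 Rubisco large chain models, from 1.21 to 1.33. All these ratios are of FPKM without median-ratio scaling. The factor of salt replicate 2 was 0.69, against 0.95 and 0.88 in salt replicates 1 and 3, so scaling would raise every one of them. By these factors all 5 Rubisco large chain models would pass 1.5 times, as the 4 mitochondrial-type models do already. The 9 photosystem models would still not pass. Other models were not counted, so the split by class holds for unscaled FPKM only.

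Among the other plastid-type models, 4 passed 1.5 times, with ratios of 3.08 for the ycf2 model, 2.67 for ndhF, 1.78 for the ndhG model ClCG06G000420 and 1.64 for ndhE. In 31 of the 32 nuclear photosynthesis genes salt replicate 2 was instead the lowest salt library, and their median ratio was 0.18. In unscaled FPKM, salt replicate 2 thus stood highest for the 4 mitochondrial-type members, though not for the nad1 model. It stood above the others in only 1 of the 9 photosystem models, and lowest for nearly all nuclear photosynthesis genes. It was also the library with the lowest scaling factor, and the part of that in the order was not tested.

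**Figure D3:**
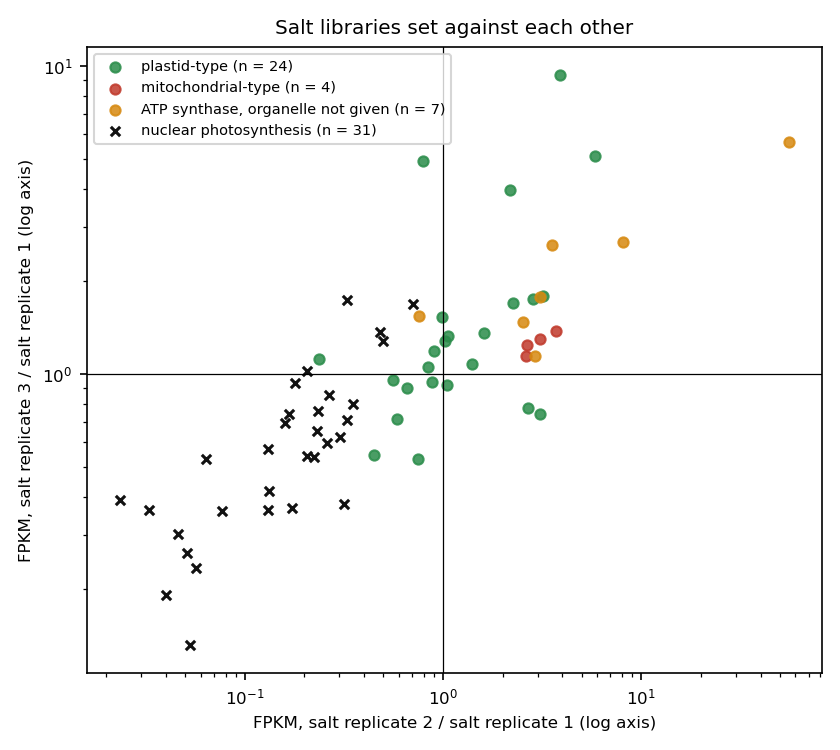
Ratio of FPKM in salt replicate 2 to salt replicate 1 (x axis) against the ratio in salt replicate 3 to salt replicate 1 (y axis), both logarithmic, for the 35 organelle-type members by class and for 31 nuclear photosynthesis genes with a value above 0 in salt replicate 2. The mitochondrial-type points lie together between 2.61 and 3.71 on the x axis, the plastid-type points spread around 1, and the nuclear photosynthesis points lie below 1.

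Some features of the members were not used by the rule. Their median length was 492 bases (range 225 to 3636), against 1375 over all models, and the 9 photosystem models measured 234 to 579 bases. The mitochondrial-type models other than ClCG05G017710 were longer, 1092 to 1989 bases. The length was a multiple of 3 in 38 of 41 members (92.7%), including all 24 plastid-type models, against 53.8% of all models with a length. Identifiers that the numbering sets outside the chromosomes (beginning ClCG00) were 7 of the 41 (17.1%) against 2.66% of all models, and 6 of those 7 were plastid-type. The features were neither shared by all members nor particular to them. The 6 nuclear-looking members had a median of 765 bases, with 66.7% a multiple of 3, and none was unplaced. The 19 other organelle-named models had a median of 801 bases, with 94.7% a multiple of 3 and 5.26% unplaced. Adjacent members were few. ClCG00G002380 (rps16) is followed by ClCG00G002390 (psaA), ClCG08G000360 by ClCG08G000370, and the atpB model ClCG07G007520 follows the Rubisco large chain model ClCG07G007510.

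The models listed just before and after each member in the order of identifiers were compared as a reference. They were 77, of which 14 (18.2%) had no fragment in any library, against 17.0% of all models. For the 11 in unplaced sequence, the order of identifiers does not show that they lie near the member. Of 51 tested, 10 were called higher (19.6%, against 13.6% of all genes) and 12 lower (23.5%, against 34.2%), and 29 were not called. Their median log2 difference was -0.19, against 2.48 for the members and -0.57 for all genes tested. After median-ratio scaling 12 were called higher (23.5%, against 22.4% of all genes) and 7 lower (13.7%, against 20.9%), so the share called higher was then close to that of all genes. Without salt replicate 2 the counts were 7 (13.7%, against 12.7%) and 11 (21.6%, against 29.2%). The 10 called higher in the main fit include the Rubisco large chain model ClCG07G007510, itself an organelle name from the study's raised list. Beside the organelle-type members alone there were 65 neighbours. Of 43 tested, 9 were called higher (20.9%) and 10 lower (23.3%). Summed over all 77 neighbours, the share was 3085 ± 320 in control and 3024 ± 466 in salt (SD, n = 3), and the groups overlapped.

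Of the neighbours called higher, the largest difference was that of ClCG06G000410, a glycine-rich protein-like model, from 3.88, 2.99 and 6.92 FPKM to 367, 509 and 248 (log2 difference 6.21, limma adjusted p = 0.000119, range over the alternatives 5.59e-05 to 0.00144). It exceeded the member beside it, the ndhG model ClCG06G000420. ClCG00G003920, an unknown protein listed before the rps4 model, had a log2 difference of 4.37 (limma adjusted p = 0.00578, range 0.000543 to 0.0283). ClCG00G004280, an acidic endochitinase before the ATP synthase a model, had 3.82 (limma adjusted p = 0.00337, range 0.00239 to 0.0182). Acidic endochitinases cleave chitin and are known from plant defence.

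The neighbours that fell most had no description at hand. ClCG10G016670, before an atpH model, fell by 3.18 on the log2 scale (limma adjusted p = 0.00222, range over the alternatives 0.000892 to 0.0178). ClCG10G008510, after the other atpH model, fell by 2.45 (limma adjusted p = 0.00299, range 0.00257 to 0.0173), and ClCG08G000350, before the adjacent ATP synthase alpha models, fell by 2.34 (limma adjusted p = 0.00626, range 0.00188 to 0.0315). Beside ClCG05G017710, ClCG05G017700 fell from 6.96 ± 0.57 to 1.42 ± 0.31 FPKM (log2 difference -1.97, limma adjusted p = 0.00301, range 0.00209 to 0.0202). ClCG05G017720, on its other side, stood at 14.4 ± 1.28 and 13.2 ± 3.02 FPKM and was not called (limma adjusted p = 0.677, range 0.150 to 0.923). Neither model beside the most highly expressed member was called higher.

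**Figure D4:**
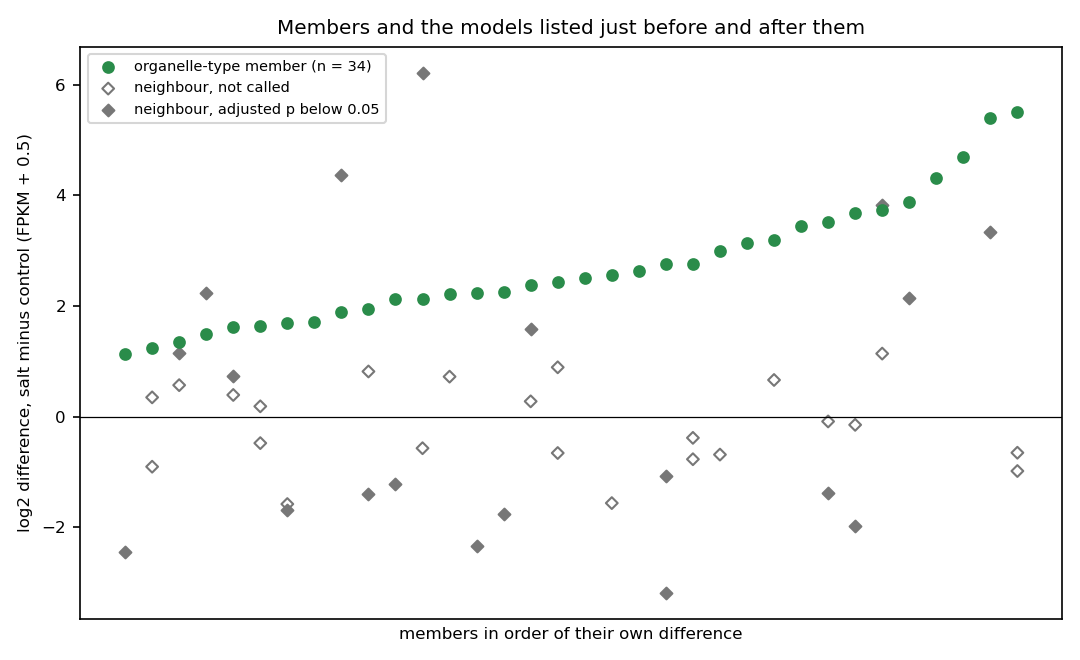
Log2 difference of salt minus control on FPKM + 0.5 for the 34 tested organelle-type members in rising order (circles) and, at the same x position, for the tested models listed just before and after each (diamonds, filled where the limma adjusted p was below 0.05). Member points run from 1.13 to 5.51, while neighbour points lie on both sides of 0.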

How the data were processed

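Leaf RNA-seq of 3 control and 3 salt libraries was analysed. Per the study's methods and the labels, reads of 150 bases in pairs were trimmed, aligned to the Charleston Gray genome and counted per gene. The sources differ on the tools (TopHat, Bowtie and HTSeq, or fastp, HISAT2 2.1.0 and featureCounts). The authors deposited FPKM values, which are not counts. FPKM steps gave whole fragments, gene lengths and library totals for 19557 genes with a value (tolerance 0.002 fragments). The summed shares and the intervals rest on these, and intervals and floors cover counting error only.

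The main test was limma 3.58.1 (trend) on log2(FPKM + 0.5) for genes averaging 0.5 FPKM or more, Benjamini-Hochberg adjusted over 16638 genes, with calls at an adjusted p below 0.05. The pseudocount understates the change of low genes. Alternatives, 16 in all, changed the pseudocount, filter, scaling, variance model, replicate block, count model (voom with TMM factors) and left out each library. On simulated data for this comparison 97 of 100 genes changed by a log2 of 1.5 were recovered, 100 of 100 at 3, and 8 unchanged genes were called. These recovery counts are read for well-expressed genes only. The members had a median control mean of 0.55 FPKM, and 22 of the 41 lay under 1 FPKM in control. How well changes in models that low are recovered was therefore not tested. R 4.3.3 and Python 3.11.15 were used.

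The labels number replicates 1 to 3 in both groups without saying what a number shares. Same-numbered libraries deviated together (r = 0.175, 0.105 and 0.128 across genes, against -0.108 to -0.039 for other pairs), so they were treated as paired in an alternative fit. Deviations were taken from the group means, so positive values for same-numbered pairs by themselves push the other pairs to negative values. The other pairs are therefore no independent reference. The members, their classes and all lists were chosen with earlier results of these data known. Members are described in full. Values in every library are given for up to 6 of the highest in each class, for descriptions shared by several members and for the largest and smallest difference, and neighbours are named for the 3 largest changes in each direction. The study's list also holds the authors' own fold changes and p-values, which were not used beyond the order of its entries. No sequence was printed, as none was at hand.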

Additional observations from a re-analysis of the deposited data

How the results depend on the processing

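Across all genes, calls higher rose from 2266 to 3719 with median-ratio scaling, 3602 with quantile normalization and 3713 with voom and TMM on recovered fragments, while calls lower went from 5684 to 3472 with median-ratio scaling and 3313 with voom. Requiring a mean of at least 2 FPKM left 7 of the other organelle-named models called higher in place of 16, since fewer were tested. Median-ratio scaling left 7 neighbours called lower in place of 12. The members' median log2 difference moved from 2.48 to 3.50 with a pseudocount of 0.1 and to 4.22 with voom, which changes scaling, offset and weights together, so the cause of that move was not tested. ClCG08G011340 turned from 1.03 to -0.22 without salt replicate 2 and reached 2.08 without salt replicate 3.

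Leaving out 1 library at a time gave 1624 to 2109 genes higher and 3685 to 5613 lower, the smallest counts without control replicate 2. It gave 29 to 35 members higher, 13 to 16 other organelle-named models higher, 25 to 32 nuclear photosynthesis genes lower, 7 to 9 neighbours higher and 8 to 15 lower, and a members' median log2 difference of 2.29 to 2.75. Without at least 1 library, 7 of the 34 members called higher were no longer called: ClCG00G003940, ClCG01G009360, ClCG05G023980, ClCG06G000420, ClCG08G000360, ClCG10G016680 and ClCG11G009270, of which 3 only without control replicate 2. With the replicate number as a block, 2279 genes were higher and 5737 lower, 37 members, 16 other organelle-named models and 8 neighbours were higher, and 32 nuclear photosynthesis genes and 16 neighbours lower. The block called ClCG03G010320, ClCG11G003810 and ClCG02G016900 higher, and among neighbours it lost ClCG01G003630 (limma adjusted p = 0.0553) and ClCG11G009300 (0.0844) and gained 4 calls lower. The main fit did not call ClCG10G008500, which 7 of the 16 alternatives called higher. The block changed no other call among the members and neighbours. Over 40 members and 16 alternatives, 546 log2 differences kept within 1 SD of the main value, 85 moved further and 1 reversed. Models with few control fragments limit the precision of a fold.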
